A study of Homo sapiens with 12 samples.

Results

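The early transcript response to removal of SPT6 was measured in DLD-1 cells, which come from a human colorectal adenocarcinoma, as the difference between 2 libraries of SPT6-AID cells after 2 h of auxin and 2 libraries of SPT6-AID cells at 0 h. These are 4 of the 12 libraries of the series, chosen by genotype and time in their labels and by no measured value. The tagged line carries an auxin-inducible degron (AID) on SPT6 and constitutively expresses OsTIR1, a plant receptor that marks the tagged protein for destruction once auxin (500 µM) is added. OsTIR1 is present at 0 h too, so the comparison holds it constant. The other 8 libraries, 2 of SPT6-AID cells after 6 h and 2 each of PAF1-AID cells in the same OsTIR1 background after 6 h, after 2 h and at 0 h, entered the same fit and share its estimate of the spread. Untagged cells given auxin are not part of the data used here, so loss of SPT6 and any effect of auxin itself cannot be told apart. Whether the libraries were separate cultures, or the line a single clone, is not given in the sources used here, so the p-values rest on the spread from library to library, which may be technical alone.

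SPT6 is a histone chaperone that travels with elongating RNA polymerase II, takes nucleosomes apart ahead of the polymerase and rebuilds them behind it, and contacts the PAF1 complex and the chaperone partner IWS1. When transcription of a gene slows, its mRNA level falls at a pace set by how fast the existing mRNA decays. Short-lived mRNAs, among them those of immediate early genes, signalling feedback inhibitors and many zinc finger proteins, therefore respond first, while long-lived mRNAs such as those of ribosomal proteins hardly move in the first hours.

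Total counts were 47619442 and 115904780 in the 2 h libraries, against 57442158 and 57448020 in the 0 h libraries, and replicates differed by more than sampling noise (a chi-square of 69.9 per degree of freedom at 2 h and 64.4 at 0 h). Fly reads, present in every library, took 4.58% and 4.80% of counts at 2 h and 4.30% and 4.30% at 0 h. Scaling by fly reads instead of TMM (edgeR's trimmed mean scaling) moved the median log2 fold change of all 20791 tested genes to -0.12, from 0.01 with TMM, so fold changes below are relative to the bulk of human transcripts. Of 10 markers of colorectal epithelium 3 were under 1 TPM in all 4 libraries and 1 of these was at 0, and the summed TPM of the 10 was 4927 and 4562 at 2 h against 4842 and 4459 at 0 h. All markers of blood (8), fibroblasts (8) and endothelium (6) were under 1 TPM, with summed TPM between 0.471 and 1.44. SUPT6H, which encodes SPT6, had 520 and 509 CPM (counts scaled to a common library size of human reads with TMM) at 2 h against 496 and 501 CPM at 0 h. The degron acts on the protein, which was not measured, so this level does not check the depletion.

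After 2 h of auxin 114 of 20791 tested genes passed (0.548%). Of these 18 rose (0.0866%) and 96 fell (0.462%) at an adjusted p under 0.05 in edgeR's quasi-likelihood test with Benjamini-Hochberg adjustment over all genes. The genes that rose moved far. Their median log2 fold change was 3.12, 14 of the 18 changed at least 4-fold, and 13 were under 1 CPM at 0 h. The genes that fell were mostly well expressed mRNAs with moderate changes. Their median was -1.04 and the range -1.89 to -0.59. Of the 96, 0 changed 4-fold, 93 were protein-coding and 89 had at least 10 CPM at 0 h. Of all 20791 tested genes 65.7% were protein-coding, 10096 had at least 10 CPM at 0 h, 6127 were under 1 CPM and 199 changed at least 4-fold. Expression sets how small a change can be called, so the contrast between rises and falls may follow in part from the test. In bulk RNA, fewer cells expressing a gene and less of its RNA per cell cannot be told apart. Counting genes by position alone, both 2 h libraries lay above both 0 h libraries for 3060 genes (14.7%) and below them for 3720 (17.9%). The fit took no account of the replicate number, and with a block for it 266 genes were higher and 1347 lower. What the number marks is not given in the labels. The number of calls also moved with the libraries in the fit. With SPT6-AID libraries alone 7 genes rose and 1 fell, and leaving out any 1 of the PAF1-AID libraries, which are not in the contrast, left 35 to 39 falls. Without SPT6-AID 2h replicate 1, 7 genes rose and 0 fell (848 lower at an unadjusted p under 0.05 in edgeR and 454 lower in DESeq2 with all libraries), without 2h replicate 2 the counts were 8 and 2, without 0h replicate 1 they were 7 and 2, and without 0h replicate 2 they were 7 and 3. The 7 genes that rose in every one of these 4 fits were SNORD3A, SNORD3B-1, SNORD3B-2, AC007952.4, CYP1A1, FOS and the 5.8S rRNA gene. Of the genes that fell, DUSP6, SLC38A2, AXIN2 and ETS2 passed in 1 to 3 of the 4 fits, and the other 92 in 0.

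**Figure D1:**
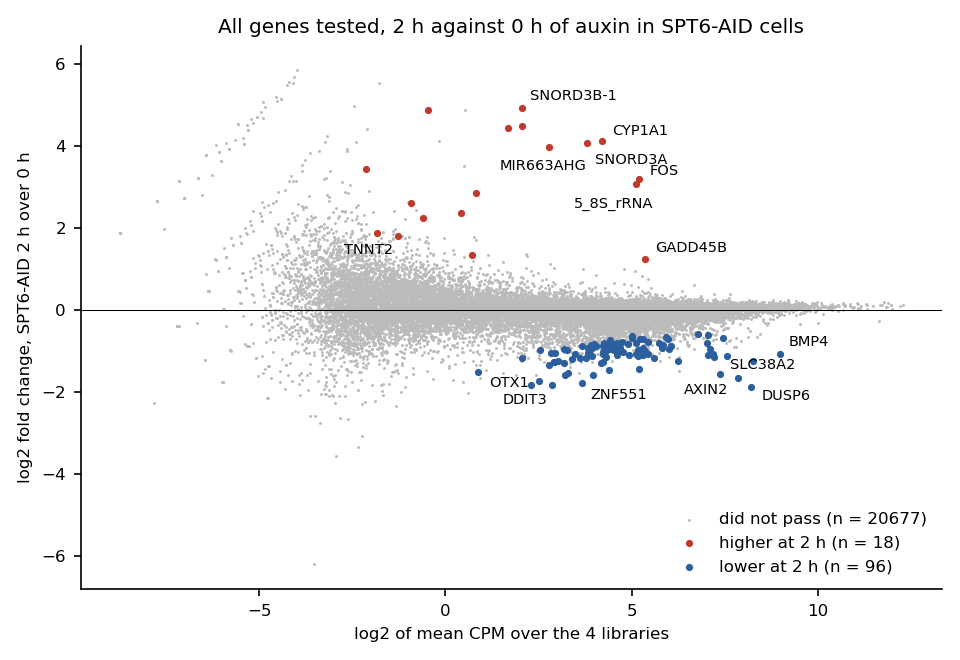
Log2 fold change of SPT6-AID 2 h over 0 h (y axis) against the log2 of mean CPM over the 4 libraries (x axis), 1 point per gene tested. The 18 genes that rose (red) sit between 1.24 and 4.91, mostly at low expression, and the 96 that fell (blue) sit between -1.89 and -0.59 at moderate to high expression.

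The largest rise was in a U3 gene, SNORD3B-1. U3 is a box C/D small nucleolar RNA that pairs with the ribosomal RNA precursor and is needed for its first cleavages, and the mature RNA normally carries no poly(A) tail. The human genes SNORD3A, SNORD3B-1, SNORD3B-2, SNORD3C and SNORD3D lie close together on chromosome 17 and encode nearly the same 217 bases. Their mature parts are shown because the counts of these copies cannot be fully separated. Capitals mark the positions that differ from SNORD3A (in SNORD3A itself, every position at which a printed copy differs), and the sequences are from GENCODE release 29 transcripts on GRCh38.
SNORD3A: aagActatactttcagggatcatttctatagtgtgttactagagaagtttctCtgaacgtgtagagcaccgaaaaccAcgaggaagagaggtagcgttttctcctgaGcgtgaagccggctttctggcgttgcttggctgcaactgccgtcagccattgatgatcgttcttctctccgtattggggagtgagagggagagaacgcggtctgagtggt
SNORD3B-1: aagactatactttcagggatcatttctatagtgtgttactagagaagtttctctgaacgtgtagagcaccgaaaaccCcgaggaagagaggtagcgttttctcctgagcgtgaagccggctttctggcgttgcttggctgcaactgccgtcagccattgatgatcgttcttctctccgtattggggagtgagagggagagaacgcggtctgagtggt
SNORD3C: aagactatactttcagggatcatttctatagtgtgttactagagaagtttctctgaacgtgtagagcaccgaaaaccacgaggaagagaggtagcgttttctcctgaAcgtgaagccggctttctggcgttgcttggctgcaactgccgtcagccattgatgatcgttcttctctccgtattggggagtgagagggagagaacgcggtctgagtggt
SNORD3D: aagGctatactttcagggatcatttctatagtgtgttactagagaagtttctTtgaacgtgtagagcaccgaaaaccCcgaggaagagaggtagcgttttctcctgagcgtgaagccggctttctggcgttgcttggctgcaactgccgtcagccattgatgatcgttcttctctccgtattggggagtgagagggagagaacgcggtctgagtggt
Counting from 1 at the 5′ end, SNORD3B-1 differs from SNORD3A by A78C, SNORD3C by G108A, and SNORD3D by A4G, C53T and A78C. The mature part of SNORD3B-2 is identical to that of SNORD3B-1. The annotated transcripts run past the mature end, by 482 bases in SNORD3A (chr17:19188016-19188714, plus strand), 541 in SNORD3B-1 (chr17:19061912-19062669, plus strand), 574 in SNORD3B-2 (chr17:19063346-19064136, minus strand), 364 in SNORD3C (chr17:19189665-19190245, minus strand) and 1 in SNORD3D (chr17:19112419-19112636, minus strand). Of the 50-base windows that reach past the mature end, 39.9% in SNORD3B-1 and 32.9% in SNORD3B-2 occur in no other copy, against 5.39% in SNORD3A and 0% in SNORD3C. Within the mature part 0% of windows of SNORD3B-1 and SNORD3B-2 are unique, 11.9% of SNORD3A and 29.8% of SNORD3C.

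Of 6 U3 genes on the list 4 passed the filter on low counts, and these 4 rose. The filter admits genes that are high in some groups only, and SNORD3C had 0.0357 and 0.0374 CPM at 0 h. The copies are also nearly identical, so the 4 rises are not separate results. SNORD3B-1 had 8.18 and 7.92 CPM at 2 h, against 0.268 and 0.262 CPM at 0 h. SNORD3A had 24.5 and 28.03 CPM at 2 h, against 1.38 and 1.78 CPM at 0 h. SNORD3B-2 had 6.58 and 5.78 CPM at 2 h, against 0.339 and 0.224 CPM at 0 h. For each of the 3, every 2 h library was far above both 0 h libraries and the spread within a group was small beside the gap. The fitted changes were 30.1-fold for SNORD3B-1 (log2 4.91 ± 0.27 SE, edgeR adjusted p = 5.95e-05), 21.7-fold for SNORD3B-2 (4.44 ± 0.30, edgeR adjusted p = 0.0002) and 16.7-fold for SNORD3A (4.06 ± 0.27, edgeR adjusted p = 0.0002). SNORD3C rested on 19 and 46 reads at 2 h against 2 and 2 reads at 0 h, a ratio of 11.6 (exact binomial 95% interval 4.31 to 43.8, counting error only). AC007952.4, a long non-coding RNA annotated on the same strand over SNORD3D, had 383 and 842 reads at 2 h against 21 and 18 at 0 h (log2 4.49 ± 0.41, edgeR adjusted p = 0.00165). Those counts are close to those of SNORD3B-1, with 382 and 847 reads in 2 h libraries against 15 and 14 reads in 0 h libraries. How reads that fit several copies were counted is not given in the sources used here, and where along the transcripts the reads fell is not shown by counts per gene. Of 32 small nucleolar RNA genes tested the 4 U3 genes rose (0.0866% of all tested genes did) and the other 28 did not pass. The median over the 32 was -0.58, most of them at low counts (median 0.302 CPM at 0 h).

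Of protein-coding genes with at least 1 CPM at 0 h, 3 rose, CYP1A1, FOS and GADD45B, all inducible genes. CYP1A1, a cytochrome P450 and well-known target gene of the aryl hydrocarbon receptor, had 42.0 and 27.1 CPM at 2 h, against 2.14 and 1.85 CPM at 0 h. FOS, an immediate early gene whose product joins JUN proteins in the AP-1 transcription factor, had 66.2 and 66.1 CPM at 2 h, against 7.66 and 6.95 CPM at 0 h. GADD45B, a stress-induced regulator of p38 signalling, had 57.0 and 57.3 CPM at 2 h, against 26.7 and 21.6 CPM at 0 h. In each gene both 2 h libraries stood above both 0 h libraries, and the 2 h replicates of FOS and GADD45B nearly coincided. CYP1A1 rose 17.2-fold (log2 4.11 ± 0.31, edgeR adjusted p = 0.000247) and FOS 9.06-fold (3.18 ± 0.22, edgeR adjusted p = 0.0002). GADD45B rose 2.37-fold (1.24 ± 0.16, edgeR adjusted p = 0.00955), with log2 fold changes of 1.10 to 1.40 and edgeR adjusted p of 0.0579 to 0.111 when any 1 of the 4 libraries was left out.

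Relatives of FOS and CYP1A1 did not pass, and the list that holds GADD45B is described further on. Of 9 AP-1 genes 1 rose and 0 fell (0.0866% and 0.462% of all tested genes). JUN, the usual partner of FOS, averaged 31.5 CPM at 2 h and 40.3 at 0 h (log2 -0.35, edgeR adjusted p = 0.485), FOSB 3.54 CPM at 2 h and 1.82 at 0 h (0.96, edgeR adjusted p = 0.591) and JUNB 95.7 CPM at 2 h and 75.8 at 0 h (0.34, edgeR adjusted p = 0.705). The 6 EGR and NAB genes, another arm of the immediate early response, held 0 that passed. Their log2 fold changes lay between -1.31 and -0.07, and EGR1 averaged 91.2 CPM at 2 h and 115 at 0 h (-0.34, edgeR adjusted p = 1). Of 11 genes of the aryl hydrocarbon receptor list only CYP1A1 passed. The list median was 0.29, against 0.01 over all tested genes, with 9 log2 fold changes above 0 and 2 below. At an unadjusted p under 0.05 in edgeR 3 were higher and 1 lower, and with DESeq2 2 were higher and 1 lower. CYP1B1, another target, averaged 78.4 CPM at 2 h and 27.8 at 0 h (log2 1.49, edgeR adjusted p = 0.115), TIPARP 49.7 CPM at 2 h and 36.9 at 0 h (0.43, edgeR adjusted p = 0.802), and the receptor gene AHR itself 64.2 CPM at 2 h and 114 at 0 h (-0.83, edgeR adjusted p = 0.206).

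The promoters of the 3 genes, and that of DUSP6 as the largest fall, are printed because the letters TATAAA stand at a like distance from the start in the 3 and not in that of DUSP6. The windows are RefSeq promoters on GRCh38.p14 from 250 bases before to 50 after the transcription start, read in the direction of the gene, namely chr14:75278578-75278877 (plus strand) for FOS, chr15:74725479-74725778 (minus) for CYP1A1, chr19:2475877-2476176 (plus) for GADD45B and chr12:89352452-89352751 (minus) for DUSP6. Capitals mark TATAAA in the first 3, and also TGACG, the core of the site of CREB and ATF factors, in FOS and GCGTG, the core of the element bound by the aryl hydrocarbon receptor, in CYP1A1.
FOS: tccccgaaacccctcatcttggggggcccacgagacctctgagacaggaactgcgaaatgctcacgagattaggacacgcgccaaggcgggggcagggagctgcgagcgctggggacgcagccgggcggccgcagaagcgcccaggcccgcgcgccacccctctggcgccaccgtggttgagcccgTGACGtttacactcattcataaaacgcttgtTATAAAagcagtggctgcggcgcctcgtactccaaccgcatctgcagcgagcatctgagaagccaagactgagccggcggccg
CYP1A1: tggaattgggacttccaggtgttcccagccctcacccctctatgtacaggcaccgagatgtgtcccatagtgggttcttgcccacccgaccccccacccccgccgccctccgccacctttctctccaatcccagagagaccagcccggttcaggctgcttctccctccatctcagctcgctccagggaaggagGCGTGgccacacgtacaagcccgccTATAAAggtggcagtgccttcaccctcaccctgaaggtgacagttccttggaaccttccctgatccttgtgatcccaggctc
GADD45B: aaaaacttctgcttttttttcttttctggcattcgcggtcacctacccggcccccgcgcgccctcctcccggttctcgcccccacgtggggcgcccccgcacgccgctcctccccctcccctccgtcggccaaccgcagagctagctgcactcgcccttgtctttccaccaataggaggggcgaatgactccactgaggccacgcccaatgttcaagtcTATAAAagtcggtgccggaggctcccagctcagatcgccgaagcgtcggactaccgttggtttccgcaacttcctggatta
DUSP6: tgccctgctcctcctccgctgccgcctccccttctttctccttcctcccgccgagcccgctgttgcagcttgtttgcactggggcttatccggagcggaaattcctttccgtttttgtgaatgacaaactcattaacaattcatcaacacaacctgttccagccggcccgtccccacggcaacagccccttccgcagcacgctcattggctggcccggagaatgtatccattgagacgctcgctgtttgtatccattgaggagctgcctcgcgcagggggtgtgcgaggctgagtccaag
TATAAA begins 33 bases before the start in FOS, 32 in CYP1A1 and 31 in GADD45B. On the gene strand between 40 and 20 bases before the start, it was found in 3 of the 6 genes that rose and have a promoter in the table, and in 2 of 116 promoters (1.72%) of 78 genes that fell, those of RND3 and SNHG7. It occurs in 2.30% of all 35116 promoters and in 1.84% of promoters of tested genes. GCGTG on either strand anywhere in the window is in 36.5% of all promoters, 46.9% of those of tested genes and 52.6% of those of genes that fell. TGACG is in 24.6%, 30.7% and 35.3% of the same sets. GCGTG is also found in the windows of FOS, GADD45B and DUSP6, where it is not capitalised. The motifs were chosen after the sequences were read, a match is a description and not a site or a cause, and no test was made.

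The remaining genes that rose were mainly non-coding and low. The 5.8S rRNA gene, annotated on a scaffold outside the assembled chromosomes, had 70.4 and 54.0 CPM at 2 h against 7.91 and 7.06 CPM at 0 h (log2 3.05 ± 0.22, edgeR adjusted p = 0.000247), and RNA5-8SP6, a pseudogene of the same RNA, 3.41 and 2.81 CPM at 2 h against 0.357 and 0.505 CPM at 0 h (2.84 ± 0.44, edgeR adjusted p = 0.0275). MIR663AHG, a host transcript of a microRNA gene, had 18.96 and 7.03 CPM at 2 h against 1.143 and 0.505 CPM at 0 h (3.96 ± 0.63, edgeR adjusted p = 0.0299). Its replicates stood apart at both times. With 1 of the 4 libraries left out its edgeR adjusted p ran from 0.0296 (without SPT6-AID 2h replicate 2) to 0.211 (without SPT6-AID 0h replicate 2). 5.8S rRNA and its pseudogenes are near-identical copies, so their counts are uncertain. LINC00672 rose by 2.37 ± 0.40 (edgeR adjusted p = 0.0379) and AL133477.1 by 2.60 ± 0.36 (edgeR adjusted p = 0.0143). LASP1, at 400 CPM at 0 h (log2 -0.03), lies within 5 kb of LINC00672 on the same strand. Whether its transcription added to the reads of LINC00672 was not tested. AC239799.2, with 63 and 157 reads at 2 h against 3 and 2 reads at 0 h, had a ratio of 31.4 (exact binomial 95% interval 13.2 to 97.5, counting error only).

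Genes that rose and overlap another gene are uncertain, because the strand setting of the counting is not given. PARD6G-AS1 (1.22 and 0.982 CPM at 2 h against 0.179 and 0.280 CPM at 0 h) lies opposite PARD6G, which had a log2 fold change of 0.01 (edgeR adjusted p = 1). On its own strand, ADNP2 lies within 5 kb, at 82.8 CPM at 0 h and a log2 fold change of -0.84 (edgeR adjusted p = 0.175). AC139100.2 overlaps it there by 662 bases and was at 1.10 (edgeR adjusted p = 0.432). Whether either added to the reads of PARD6G-AS1 was not tested. ADAMTSL4-AS2 (0.450 and 0.430 CPM at 2 h against 0.107 and 0.131 CPM at 0 h) has 91.2% of its span opposite ADAMTSL4, and its neighbour ADAMTSL4-AS1 was at 3.86 (edgeR adjusted p = 0.0745). AL731571.1 (2.44 and 2.25 CPM at 2 h against 0.839 and 1.01 CPM at 0 h) lies wholly inside CTBP2 on the other strand, and CTBP2 was at -0.04 (edgeR adjusted p = 1). TNNT2, the cardiac troponin T gene, rose to 0.664 and 0.626 CPM at 2 h against 0.179 and 0.187 CPM at 0 h (1.80 ± 0.29, edgeR adjusted p = 0.0299) and shares 24.1% of its span with LAD1 on the same strand, which was at 0.05 (edgeR adjusted p = 1). In none of these cases did a neighbour that was tested pass. By annotated type, 3 of 1293 antisense genes rose (PARD6G-AS1, ADAMTSL4-AS2 and AL731571.1) and 1 fell, SNHG7, and of 1139 lincRNA genes AC007952.4 rose and SNHG15 fell, against 0.0866% higher and 0.462% lower over all tested genes. By name alone, 2 of 487 -AS genes and 1 of 341 LINC genes rose.

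**Figure D2:**
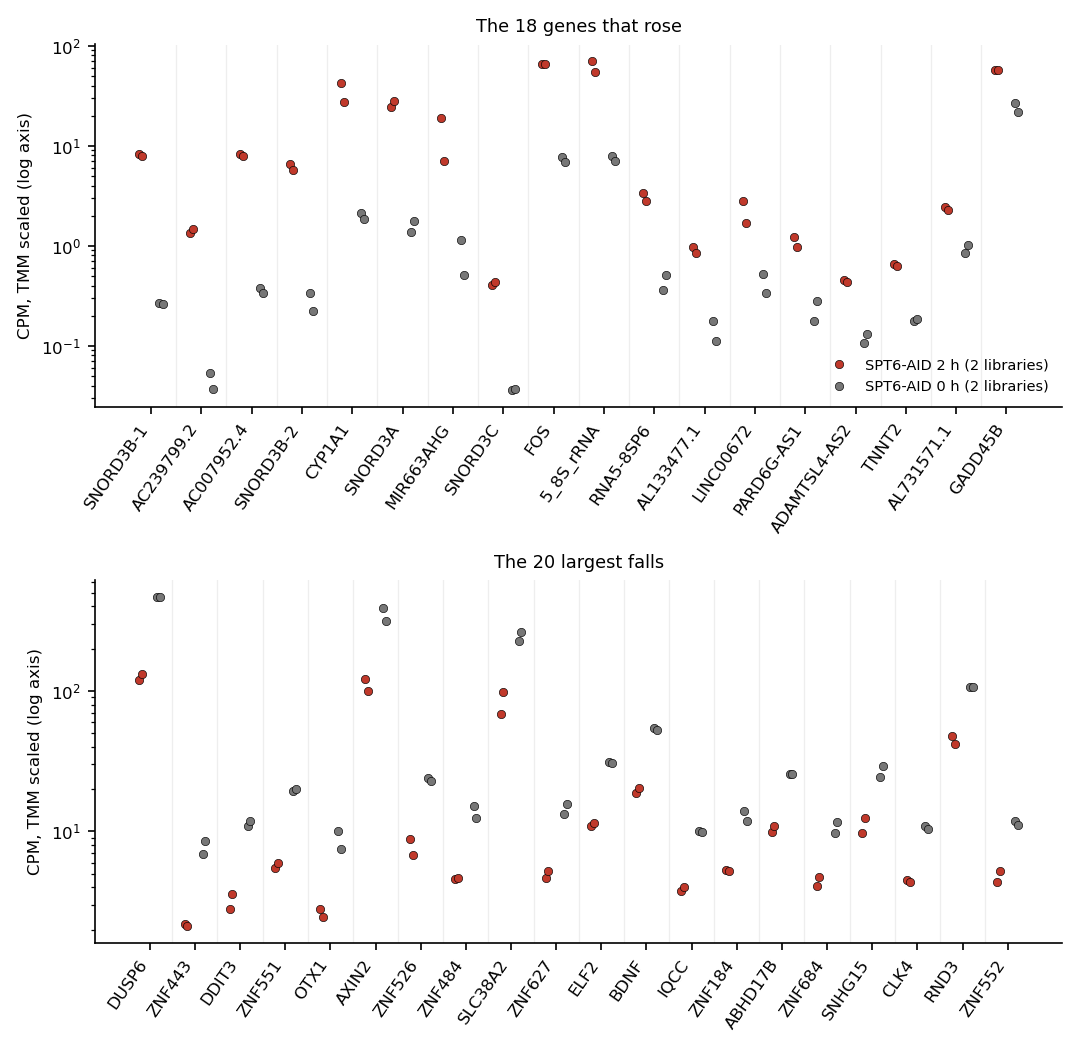
TMM-scaled CPM (log axis) of each library, SPT6-AID 2 h in red to the left of SPT6-AID 0 h in grey, for the 18 genes that rose (top) and the 20 largest falls with a mean of at least 2 CPM (bottom). Both 2 h points lie on one side of both 0 h points in all 38 genes, and the replicates of MIR663AHG stand further apart than those of the U3 genes.

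The largest fall was in DUSP6, the phosphatase that switches off ERK. DUSP6 had 119 and 131 CPM at 2 h, against 464 and 469 CPM at 0 h, leaving 26.9% of its 0 h level (log2 -1.89 ± 0.18, edgeR adjusted p = 0.00172). Without SPT6-AID 2h replicate 1 it was at an edgeR adjusted p of 0.0517. Of 14 measured feedback genes of ERK signalling 3 fell and 0 rose (0.462% and 0.0866% of all tested genes), with a list median of -0.53 against 0.01 over all tested genes. DUSP5, a nuclear ERK phosphatase, had 41.2 and 45.8 CPM at 2 h against 85.7 and 84.9 CPM at 0 h (-0.97 ± 0.13, edgeR adjusted p = 0.0112). PHLDA1 had 98.4 and 89.4 CPM at 2 h against 192 and 174 CPM at 0 h (-0.96 ± 0.16, edgeR adjusted p = 0.0324). The 4 libraries separated by time in all 3 genes. Others of the list lay lower without passing, such as the ERK inhibitor SPRY4, which averaged 12.3 CPM at 2 h and 22.3 at 0 h (-0.86, edgeR adjusted p = 0.0892). In the whole list 13 of 14 log2 fold changes were below 0.

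Among WNT targets 2 genes fell, and many had fold changes near 0. AXIN2, a scaffold of the β-catenin destruction complex and a feedback inhibitor of WNT, had 121 and 101 CPM at 2 h, against 387 and 314 CPM at 0 h. BMP4, a secreted BMP ligand, had 316 and 335 CPM at 2 h, against 748 and 633 CPM at 0 h. Both genes were lower in each 2 h library than in either 0 h library. AXIN2 fell by 1.66 ± 0.20 on the log2 scale (edgeR adjusted p = 0.00955) and BMP4 by 1.09 ± 0.17 (edgeR adjusted p = 0.0262). Of the 21 measured WNT targets these 2 fell (0.462% of all tested genes did) and 0 rose, and the list median was -0.04. At an unadjusted p under 0.05 in edgeR 8 of the 21 were lower, and 6 were lower with DESeq2. MYC, a WNT target and growth regulator, had 29.7 and 51.4 CPM at 2 h against 82.0 and 146 CPM at 0 h (-1.49 ± 0.31, edgeR adjusted p = 0.0777). Its replicates were wide apart at both times, while each 2 h library was below the 0 h library of the same number. RNF43 was at -0.87 (edgeR adjusted p = 0.0710) and SOX9 at -0.92 (edgeR adjusted p = 0.221), while CCND1 averaged 790 CPM at 2 h and 792 at 0 h, CD44 171 CPM at 2 h and 169 at 0 h, and LGR5 6.57 CPM at 2 h and 6.39 at 0 h. BMP and TGF-beta targets, the next step after BMP4, had 0 of 10 that passed, with a list median of -0.48. ID1 had 42.3 and 21.7 CPM at 2 h against 111 and 41.3 CPM at 0 h (edgeR adjusted p = 0.448). Its groups overlapped, while each 2 h library was below the 0 h library of the same number.

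Other early response and stress regulators also fell. Of 27 KLF, IER and GADD45 genes, 3 fell and GADD45B rose (0.462% and 0.0866% of all tested genes), with a list median of -0.31. ZFP36L1 and ZFP36L2, which bind AU-rich elements and speed mRNA decay, and MCL1, a short-lived survival protein of the BCL2 family, were the 3. ZFP36L1 had 199.5 and 164 CPM at 2 h against 471 and 393.5 CPM at 0 h (-1.25 ± 0.20, edgeR adjusted p = 0.0286). MCL1 had 92.0 and 90.9 CPM at 2 h against 214 and 190.3 CPM at 0 h (-1.14 ± 0.18, edgeR adjusted p = 0.0281). For these genes the times did not overlap. ZFP36, the third member of that decay family, averaged 39.9 CPM at 2 h and 40.3 at 0 h (-0.02, edgeR adjusted p = 1). DDIT3, which encodes the stress factor CHOP, had 2.81 and 3.58 CPM at 2 h against 11.0 and 11.9 CPM at 0 h (-1.83 ± 0.27, edgeR adjusted p = 0.0186). It was the 1 gene of 17 on the ATF4 and unfolded protein stress list that fell, and the list median was -0.32. ATF4 averaged 236 CPM at 2 h and 322 at 0 h (-0.45, edgeR adjusted p = 0.857). Of 18 p53 targets, PLK2 fell by 1.10 ± 0.19 (edgeR adjusted p = 0.0417), while CDKN1A was at 0.16 and MDM2 at -0.50 (edgeR adjusted p = 1 and 0.892). The amino acid transporter SLC38A2 had 68.1 and 98.3 CPM at 2 h, against 228 and 263.5 CPM at 0 h (-1.56 ± 0.18, edgeR adjusted p = 0.00955), the small GTPase RND3 47.4 and 41.6 CPM at 2 h against 106 and 107 CPM at 0 h (-1.26 ± 0.15, edgeR adjusted p = 0.00955), and the growth factor BDNF 18.8 and 20.3 CPM at 2 h against 54.0 and 52.9 CPM at 0 h (-1.45 ± 0.18, edgeR adjusted p = 0.00955). All 3 fell with no overlap between the times. The homeobox factor OTX1, the ETS factor ELF2, IQCC and the depalmitoylase ABHD17B fell by 1.74, 1.47, 1.34 and 1.30 on the log2 scale (edgeR adjusted p from 0.00955 to 0.0466).

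Zinc finger genes made up the largest group among the falls. Of 511 ZNF genes on the list 357 were measured, and 23 of these fell (6.44%, against 0.462% of all tested genes) and 0 rose. The list median was -0.50, and 314 of 357 log2 fold changes were below 0. In PAF1-AID cells at 2 h the median of the same genes was also below 0, at -0.29, against 0.01 over all tested genes. ZNF443 had 2.21 and 2.11 CPM at 2 h, against 6.91 and 8.503 CPM at 0 h (-1.84 ± 0.23, edgeR adjusted p = 0.00955). ZNF551 had 5.51 and 5.94 CPM at 2 h, against 19.3 and 20.1 CPM at 0 h (-1.78 ± 0.23, edgeR adjusted p = 0.00955). ZNF92 had 12.3 and 12.3 CPM at 2 h, against 27.8 and 27.1 CPM at 0 h (-1.16 ± 0.13, edgeR adjusted p = 0.00873). In the 3 genes the 2 h replicates were close and lay well under the 0 h replicates. Among the 20 largest falls were also ZNF526, ZNF484, ZNF627, ZNF184, ZNF684 and ZNF552, which fell by 1.59, 1.58, 1.55, 1.30, 1.27 and 1.26 on the log2 scale (edgeR adjusted p from 0.00955 to 0.0462). Most ZNF proteins of this kind carry tandem C2H2 fingers that bind DNA, often with a KRAB repressor domain, and a large share of their genes sit in clusters on chromosome 19. On chromosome 19, 10 of 142 fell (7.04%, median -0.64), and on other chromosomes 13 of 215 (6.05%, median -0.39). Of ZNF genes under 20 kb 11 of 146 fell, and of those of 20 kb or more 12 of 211. The related ZBTB genes, which combine a BTB domain with zinc fingers, had a median of -0.44 with 34 of 37 below 0, but 1 passed, ZBTB9 (-0.75 ± 0.14, edgeR adjusted p = 0.0466). The ZNF genes were selected as a list with their fall in these libraries already known, so the count is a description.

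Genes for RNA processing had scattered falls. Of all tested genes 0.462% fell. The kinases CLK4 and CLK1, which phosphorylate SR splicing factors, fell by 1.27 ± 0.18 (edgeR adjusted p = 0.0174) and 0.96 ± 0.15 (edgeR adjusted p = 0.0304), and the other 26 of 28 splicing factor genes did not pass. CLK2 was at 0.02 and CLK3 at 0.10. Of 25 genes for 3′ end cleavage and termination, PCF11, a termination factor that binds the polymerase tail, had 41.7 and 50.9 CPM at 2 h against 80.3 and 92.2 CPM at 0 h (-0.90 ± 0.15, edgeR adjusted p = 0.0372). PAPOLG, a poly(A) polymerase, fell by 1.01 ± 0.18 (edgeR adjusted p = 0.0417). Of 29 measured snoRNA host genes SNHG15 and SNHG7 fell, by 1.27 ± 0.19 and 0.89 ± 0.15, and the list median was -0.23. The abundant hosts GAS5 (74.1 CPM at 2 h and 99.3 at 0 h) and SNHG1 (73.3 CPM at 2 h and 86.1 at 0 h) did not pass (edgeR adjusted p = 0.710 and 1).

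The machinery SPT6 works with was not among the calls. Over all tested genes 0.548% passed, so lists this small can hold none at that share. In the PAF1 complex 0 of 6 genes passed, with log2 fold changes of -0.23 to 0.03. The same held for 0 of 16 SPT6 partners and histone chaperones (IWS1 at -0.27, SUPT5H at 0.10, SUPT16H at 0.03), 0 of 14 NELF and super elongation complex genes and 0 of 27 RNA polymerase II and general transcription factor genes. P-TEFb, which releases paused polymerase, and its 7SK regulators had 0 of 11 that passed and a median of -0.24. CCNT1 had 51.3 and 59.1 CPM at 2 h against 80.6 and 89.0 CPM at 0 h (-0.62 ± 0.13, edgeR adjusted p = 0.0779), MEPCE averaged 32.0 CPM at 2 h and 54.4 at 0 h (-0.76 ± 0.16, edgeR adjusted p = 0.0857), and CDK9 81.7 CPM at 2 h and 82.4 at 0 h. The 87 cytosolic ribosomal protein genes had 0 that passed and a median of 0.08, which becomes -0.05 with fly scaling. The 76 nuclear oxidative phosphorylation genes had 0 and 0.09 (-0.04 with fly scaling), and the 38 proteasome genes 0 and 0.05 (-0.08 with fly scaling). In cell cycle lists, 0 of 24 mitosis genes passed (median -0.12) and 0 of 22 DNA replication and G1/S genes (median -0.03). Over the 44 lists, 29 had no gene that passed edgeR's test, with medians from -0.48 to 0.17. Of their 686 measured members 6 were higher and 51 lower at an unadjusted p under 0.05. A p that misses the threshold does not show that a gene kept its level.

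**Figure D3:**
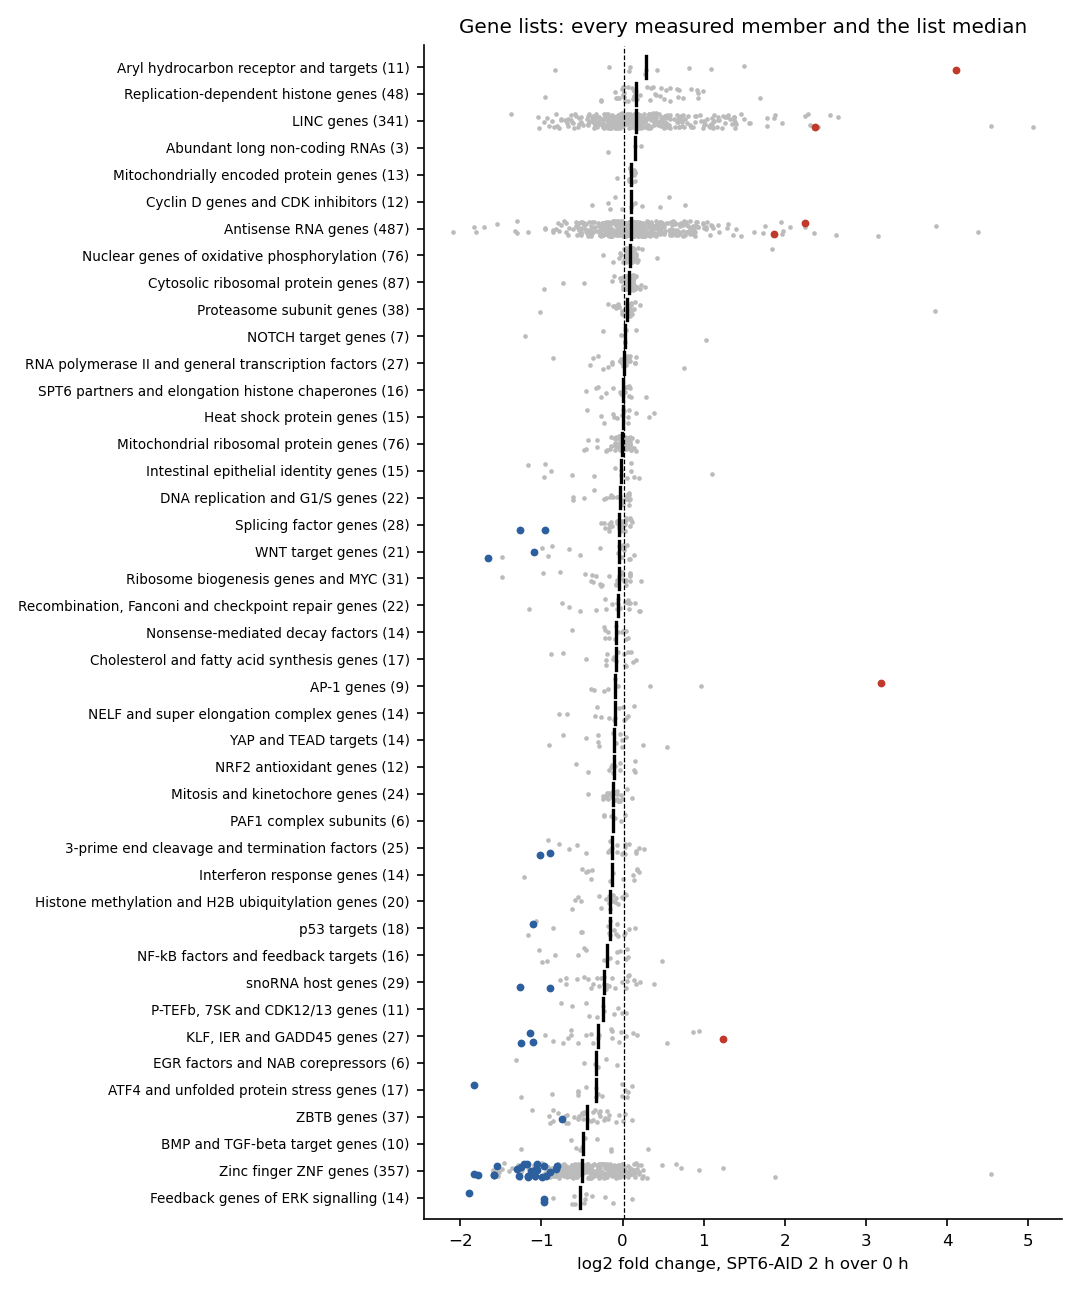
Log2 fold change of SPT6-AID 2 h over 0 h (x axis) for every measured member of 43 gene lists (rows, number measured in brackets), with members that rose in red, that fell in blue and that did not pass in grey. Black bars are list medians and the dashed line is the median of all tested genes (0.01). Feedback genes of ERK signalling (-0.53), ZNF genes (-0.50) and BMP and TGF-beta targets (-0.48) have the lowest medians.

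The genes that fell had a median of 4 exons, against 6 over all tested genes. Among 11664 protein-coding genes with at least 1 CPM at 0 h, 93 fell (0.797%) and 3 rose. By exon number of the annotated transcript with most exons, 4 of 236 genes with 1 exon fell (1.69%) and 45 of 1745 with 2 to 4 exons (2.58%). Of genes with more exons, 28 of 3828 with 5 to 9 fell (0.731%), 12 of 3965 with 10 to 19 (0.303%) and 4 of 1885 with 20 or more (0.212%). Without ZNF genes the share was 2.01% for 2 to 4 exons (33 of 1643) and 0.467% for 5 to 9 (17 of 3644). By gene length, 7 of 930 genes under 5 kb fell (0.753%), 42 of 3151 genes of 5 to 20 kb fell (1.33%) and 29 of 3225 of 20 to 50 kb (0.899%), against 8 of 2109 of 50 to 100 kb (0.379%), 6 of 1431 of 100 to 200 kb (0.419%), 1 of 601 of 200 to 400 kb (0.166%) and 0 of 217 of 400 kb and over. Expression differed between these classes and sets how small a change can be called. Median CPM at 0 h was 21.7 for genes with 2 to 4 exons and 56.8 for those with 20 or more, and the share that fell was 0.0689% at 1 to 5 CPM, 1.19% at 20 to 50 CPM and 0.635% at 100 CPM and over. Medians of all members of a class moved little. They were -0.16 for 1 exon, -0.12 for 2 to 4 exons and 0.01 for 20 or more, and -0.03 for genes of 400 kb and over. These shares describe genes and were not tested, since genes are not replicates.

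**Figure D4:**
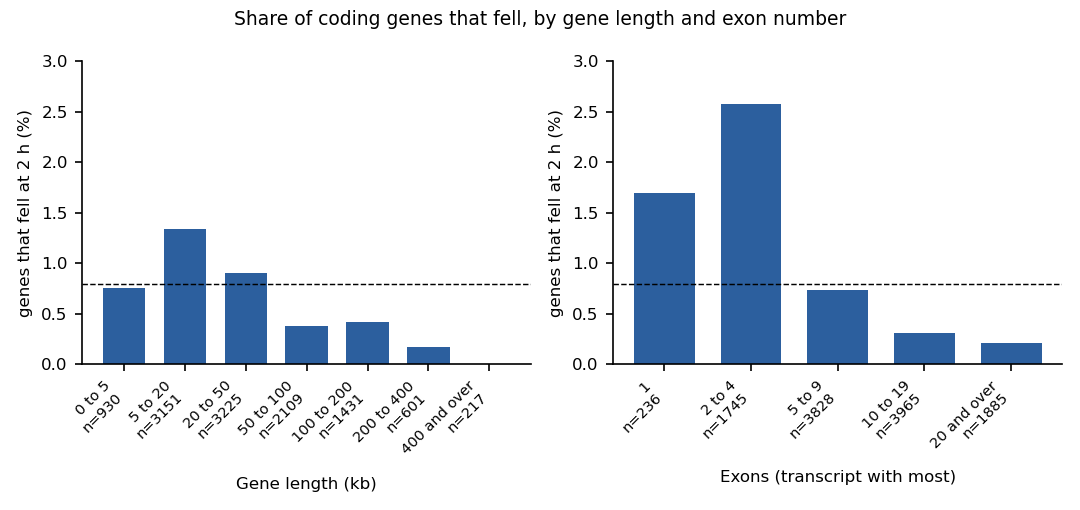
Percentage of protein-coding genes with at least 1 CPM at 0 h that fell after 2 h (y axis), by gene length in kb (left) and by number of exons (right), with the number of genes in each class under its bar. The dashed line is the share over all 11664 genes (0.797%), and the bar for 2 to 4 exons (2.58%) is the tallest.

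Auxin treatment was followed to 6 h in the same line, with the same 2 h libraries entering both contrasts. At 6 h against 2 h, 1107 genes rose (5.32% of those tested) and 2166 fell (10.4%). Among the genes that fell at 2 h and went back furthest by 6 h were SERTAD2, ZNF551, ITPRIP and RGMB. SERTAD2, a transcriptional coregulator, had 50.2 and 48.5 CPM at 0 h, 31.6 and 28.9 at 2 h, and 108 and 110.4 at 6 h, so both 6 h libraries stood above both 0 h libraries (6 h over 2 h 1.85 ± 0.13, edgeR adjusted p = 0.000262). ZNF551 had 19.3 and 20.1 CPM at 0 h, 5.51 and 5.94 at 2 h, and 15.8 and 21.9 at 6 h (1.72 ± 0.23, edgeR adjusted p = 0.00153). ITPRIP had 34.0 and 32.9 CPM at 0 h, 15.7 and 15.3 at 2 h, and 51.1 and 49.5 at 6 h (1.70 ± 0.14, edgeR adjusted p = 0.000358). RGMB had 22.0 and 18.9 CPM at 0 h, 12.3 and 10.5 at 2 h, and 30.6 and 25.6 at 6 h (1.31 ± 0.16, edgeR adjusted p = 0.00111). Other genes that fell did not go back. DUSP6 was at 148 and 132 CPM at 6 h (0.16, edgeR adjusted p = 0.617), and BMP4 went on to 199 and 152 CPM (-0.89 ± 0.17, edgeR adjusted p = 0.00641). Among the genes that rose, GADD45B climbed to 117 and 155 CPM at 6 h (1.25 ± 0.15 over 2 h, edgeR adjusted p = 0.00122), and FOS was at 67.2 and 49.5 CPM (-0.18, edgeR adjusted p = 0.634). SNORD3B-1 was at 9.43 and 11.3 CPM (0.36, edgeR adjusted p = 0.303) and SNORD3A at 28.6 and 37.6 CPM (0.33, edgeR adjusted p = 0.407).

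Loss of PAF1 for the same time, measured against its own 0 h libraries, shows which early changes occurred in both lines. In PAF1-AID cells 14 genes rose (0.0673%) and 17 fell (0.0818%) at 2 h. The lists share 8 genes in the same direction, 7.02% of the 114 calls in SPT6-AID cells and 25.8% of the 31 in PAF1-AID cells. CYP1A1, FOS, the 5.8S rRNA gene and AL133477.1 rose in both, and ZFP36L2, ZNF689, PCF11 and DDIT3 fell in both. FOS had 18.1 and 15.2 CPM at 2 h in PAF1-AID cells against 4.70 and 5.28 CPM at 0 h (1.74 ± 0.22, edgeR adjusted p = 0.0291). DDIT3 had 3.59 and 4.99 CPM at 2 h in PAF1-AID cells against 18.2 and 12.5 CPM at 0 h (-1.84 ± 0.27, edgeR adjusted p = 0.0363).

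The difference between the lines' responses at 2 h, tested as an interaction in the same fit, passed for 7 genes (0.0337%), 3 with a higher response in SPT6-AID cells (0.0144%) and 4 with a lower one (0.0192%). The 3 were U3 genes. In PAF1-AID cells SNORD3B-2 had 0.674 and 0.629 CPM at 2 h against 0.593 and 0.711 CPM at 0 h, SNORD3B-1 0.842 and 0.629 CPM at 2 h against 0.479 and 0.482 CPM at 0 h, and SNORD3A 3.30 and 2.58 CPM at 2 h against 2.01 and 2.13 CPM at 0 h. The SPT6-AID response exceeded the PAF1-AID response by 4.44 ± 0.41 for SNORD3B-2, 4.31 ± 0.36 for SNORD3B-1 and 3.56 ± 0.36 for SNORD3A (edgeR adjusted p = 0.00645, 0.00471 and 0.00894). Without PAF1-AID 2h replicate 4 the number with a higher response was 0 (205 at an unadjusted p under 0.05). The 4 with a lower response were ZNF551 (-2.39 ± 0.31), ZNF597 (-2.01 ± 0.23), ITPRIP (-1.43 ± 0.19) and ZNF574 (-1.31 ± 0.17), with an edgeR adjusted p of 0.0181 for ZNF597 and 0.0443 for the other 3. ZNF597 had 6.70 and 6.11 CPM at 2 h in SPT6-AID cells against 15.2 and 14.5 CPM at 0 h, and 20.1 and 22.1 CPM at 2 h in PAF1-AID cells against 11.2 and 13.1 CPM at 0 h. ZNF574 did not pass at 2 h in SPT6-AID cells (24.7 and 24.8 CPM at 2 h against 35.3 and 36.3 CPM at 0 h, -0.53, edgeR adjusted p = 0.0912). It rose in PAF1-AID cells (48.6 and 49.2 CPM at 2 h against 27.1 and 30.0 CPM at 0 h, 0.78, edgeR adjusted p = 0.0427), and is named after its values were seen. These 4 dropped to 0 or 1 when any library other than those at 6 h in SPT6-AID cells was left out. For all other genes a difference between the lines did not pass, which does not show that they responded alike.

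**Figure D5:**
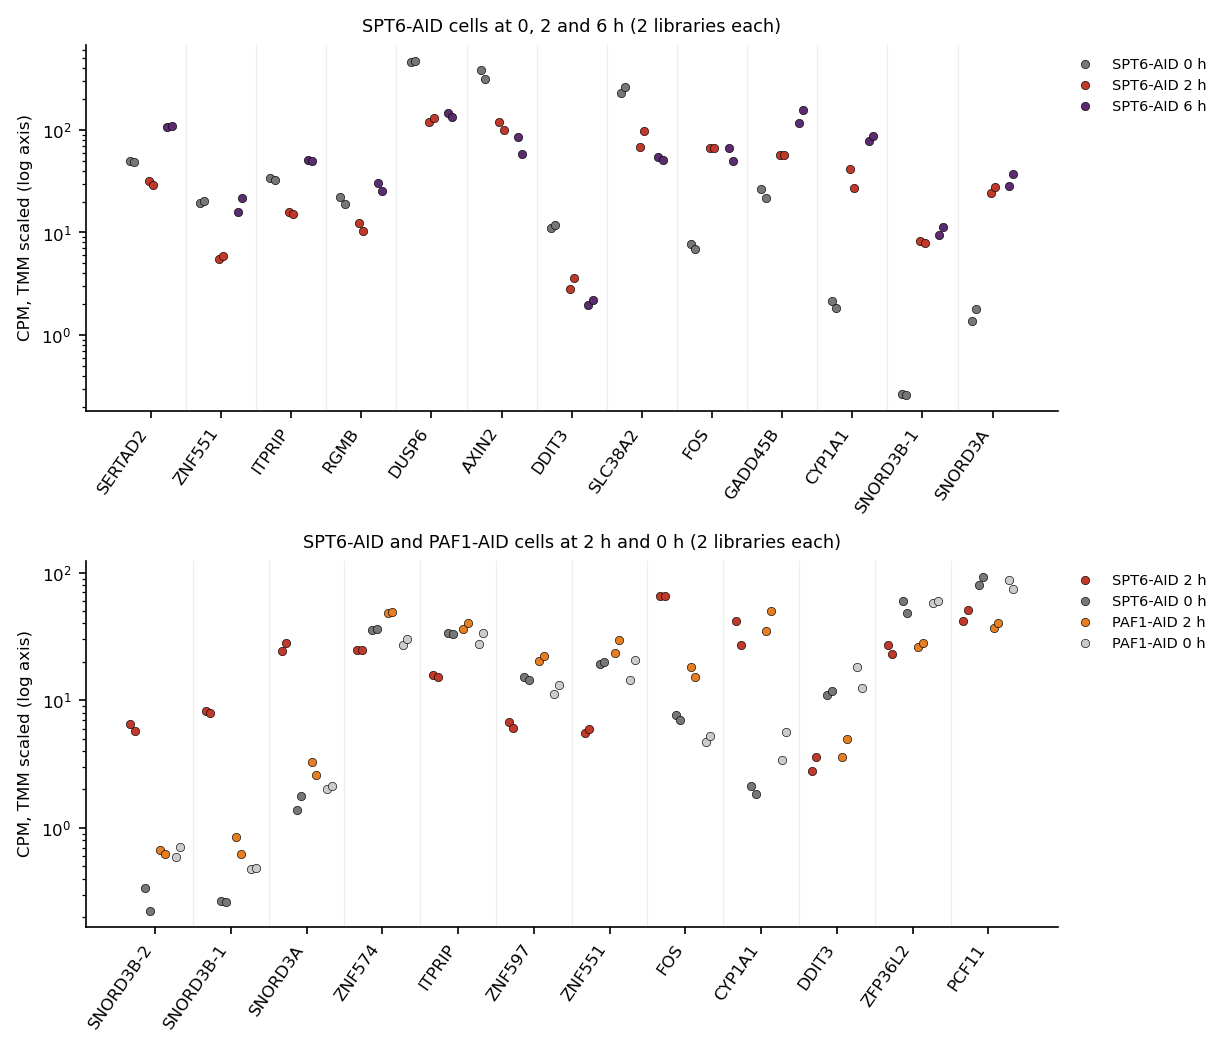
TMM-scaled CPM (log axis) of each library. Top, SPT6-AID cells at 0, 2 and 6 h for 4 of the 5 genes that went back furthest and for 9 others with large changes, chosen after their values were seen. Bottom, SPT6-AID 2 h, SPT6-AID 0 h, PAF1-AID 2 h and PAF1-AID 0 h for the 7 genes whose response differed between the lines and for 5 of the 8 that moved the same way in both. The U3 genes stand high in SPT6-AID 2 h and low in the other 3 groups.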

How the data were processed

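Poly(A) RNA was selected and made into libraries with a directional NEBNext kit, per the labels' protocols. The deposited table holds the authors' whole-number read counts per gene, not normalized, for 60666 human and 17807 fly rows, with gene lengths. Per the submitters' processing notes the tools were cutadapt 1.14, STAR 2.7.5 and featureCounts 2.0.0, with GRCh38 and BDGP6. Strand setting, treatment of multi-mapping reads, annotation release and how the fly material was added are not given in the sources used here.

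Human genes passing filterByExpr (20791) were scaled by TMM and fitted with edgeR 4.0.16 (R 4.3.3) as 6 group means over all 12 libraries, which leaves 6 residual degrees of freedom. The quasi-likelihood test was used with Benjamini-Hochberg adjustment over all genes and a threshold of 0.05. SE was taken as the size of the log2 fold change over the square root of F. TPM used the deposited transcript lengths. Gene type, exons and positions came from GENCODE 29 on GRCh38, matched by ID for 58420 rows with 99.98% of human counts, and promoters from RefSeq. Groups come from the titles. Named genes were SUPT6H, all genes that rose, the 20 largest falls whose log2 CPM averaged 1 or more, up to 4 called members per list (or the 2 with the smallest p), interaction genes called at 2 h, and the 5 that went back furthest by 6 h, 1 of which is not reported here. List members named beyond these were picked once values were known, not every gene of lists without a call is named, and the 44 lists and all comparisons were chosen with earlier results of these data known. On simulated data the fit recovered 2% of 1.5-fold, 42% of 2-fold, 86% of 4-fold and 100% of 8-fold changes, with 6 of 121 calls false. The simulated libraries were drawn independently, without the deviations that same-numbered libraries shared in the data.

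Alternatives were DESeq2 size factors and Wald test (DESeq2 1.42.0), total and fly counts, no filter, a mean of at least 1 CPM, limma-voom (limma 3.58.1), SPT6-AID libraries alone, 2 h and 0 h alone, a prior count of 2, a block for the replicate number, and dropping each library in turn. A lone library left in its group was assumed to vary as the other groups do. The alternatives for 6 h against 2 h were added after the data were seen.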

Additional observations from a re-analysis of the deposited data

Results flagged for a closer look

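Each of these 7 genes was picked out because its response at 2 h differed between the lines in edgeR's interaction test, with own 0 h libraries on both sides. The SPT6-AID minus PAF1-AID difference in log2 fold change was 4.44 for SNORD3B-2, 4.31 for SNORD3B-1 and 3.56 for SNORD3A, where SPT6-AID cells rose and PAF1-AID cells were at -0.0022, 0.61 and 0.50 without passing. It was -2.39 for ZNF551, -2.01 for ZNF597 and -1.43 for ITPRIP, which fell in SPT6-AID cells and were at 0.60, 0.80 and 0.32 in PAF1-AID cells without passing. For ZNF574 it was -1.31, with -0.53 in SPT6-AID cells (not passing) and 0.78 in PAF1-AID cells. Groups of 2 libraries are too small for a check of single outlying libraries.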

How the results depend on the processing

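The 18 higher and 96 lower genes at 2 h became 10 and 23 with fly counts as library sizes, 86 and 294 with no filter on low counts, 55 and 454 with DESeq2's Wald test, 7 and 1 with SPT6-AID libraries alone, and 0 and 0 with the 2 h and 0 h libraries alone (312 and 1154 at an unadjusted p under 0.05). Total human counts gave 51 lower. Leaving out 1 library gave 7 to 21 higher and 0 to 122 lower. The fits differ in the genes tested, and otherwise the cause was not tested. Of the interaction, 3 higher became 9 with no filter and 7 with DESeq2, with 0 to 3 when a library was left out. The 4 lower became 2 with total counts, 1 with fly counts, 25 with no filter, 7 at a mean of at least 1 CPM, 50 with DESeq2 and 1 with limma-voom, with 0 to 4 when a library was left out. The 3273 genes at 6 h against 2 h became 1940 with SPT6-AID libraries alone and 1119 to 3183 when a library was left out. SUPT6H was at -0.0797 with fly counts, and NORAD ran from -0.556 without SPT6-AID 2h replicate 2 to 0.120 without 0h replicate 2 (0.118 without 2h replicate 1); neither gene had passed. The sign of list medians turned with fly scaling for SPT6 partners, RNA polymerase II and general transcription factors, NOTCH targets, heat shock genes, cyclin D and CDK inhibitor genes, ribosomal protein, oxidative phosphorylation, proteasome, mitochondrially encoded and antisense genes.

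The labels number SPT6-AID libraries 1 and 2 at every time but do not say what the number marks, and there are only 2 pairs. Deviations from the group means correlated at 0.918 between same-numbered 0 h and 2 h libraries over 13280 genes, a hint from the data and not from the design. With the replicate block 266 genes were higher and 1347 lower at 2 h, including all 18 and 96, with 19 and 221 for the interaction and 8466 for 6 h against 2 h. Of 60 named genes that had not passed, 37 did so with the replicate block.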
